A study of Mus musculus with 30 samples.

Results

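The genes described here are 10 genes for proteins of the contractile unit and of calcium handling that mark fast skeletal muscle fibres: Mylpf, Myl1, Tpm1, Tnnt3, Tnni2, Tnnc2, Actn3, Pvalb, Casq1 and Atp2a1. They came as a given list of symbols, drawn up with earlier results of these data known, and all 10 were found among the 11249 genes of the deposited table. RNA was sequenced from muscle of male mice 3 days after surgery. The animals had a sham operation (the label is Sham SCI, for spinal cord injury) or a full cut of the spinal cord, either high in the chest, at thoracic level T3, or lower, at T9. There were 4 gastrocnemius libraries (calf) and 6 triceps brachii libraries (upper foreleg) for each of the 3 surgeries. The sources used here give neither strain nor age, and no treatment beyond the surgery. Whole muscle was used, so a library mixes all fibre types with the other cells of the tissue. The comparisons address how muscles supplied from below (gastrocnemius) and above (triceps) a thoracic cut respond, and whether the height of the cut matters.

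Skeletal muscle contracts when calcium leaves the sarcoplasmic reticulum and binds troponin C on the thin actin filament. Troponin and tropomyosin then shift, myosin heads bind actin, and the cycle ends when a calcium pump refills the store. Fast and slow fibres build this machinery from different genes. Fast fibres use their own myosin light chains (Mylpf, Myl1), troponin subunits (Tnnt3, Tnni2, Tnnc2) and Z-disc crosslinker (Actn3), and hold the calcium buffer parvalbumin (Pvalb), the store protein calsequestrin 1 (Casq1) and the calcium pump SERCA1 (Atp2a1). Tpm1 encodes alpha-tropomyosin, which the heart also makes. The gastrocnemius and the triceps of the mouse consist mostly of fast fibres.

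Values are given in CPM, the reads of a gene per 1e+06 reads of the library in the table, and changes in log2 CPM. Libraries held 13.3 to 23.4 M reads (1 M is 1e+06 reads), except that triceps T3 replicate 5 held 88.8 M. The skeletal muscle label held in every library, with the summed level of 6 fibre markers (Ckm, Acta1, Ttn, Mb, Des, Neb) at 32468 to 70122 CPM. Several libraries stood apart. Triceps sham replicate 4 carried 972 CPM of 7 macrophage markers, against 17.3 to 41.3 CPM in the other 5 triceps sham libraries, and 1159 CPM of 7 fibroblast markers, against 192 to 424. The lowest medians over genes belonged to replicates 3 and 4 of triceps sham (log2 values of 3.29 and 3.55), to replicate 4 of gastrocnemius sham (3.66) and to replicate 1 of triceps T9 (3.67), and the other libraries lay at 3.71 to 4.33. In the triceps, 4 libraries of each group carry the number 60 in their label and 2 carry 57, and the sources used here do not say what that number stands for. Because 3 of the 4 libraries with the lowest medians were sham libraries, results are given below also without these 4 and without triceps sham replicate 4, where that changes a call.

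The members that moved together are shown by the sequence at their gene start, and Atp2a1 is shown beside them as a member that was not called within either muscle. Windows of 300 bases, 250 before and 50 after a RefSeq start site, were found for 7 of the 10 members in the build GRCm38.p6 (Mylpf, Myl1, Tnnc2, Tpm1, Pvalb, Casq1 and Atp2a1). Capitals mark matches, on either strand, to the E-box (CANNTG, the site bound by MyoD and its relatives), the MEF2 site, the CArG box, the M-CAT element (CATTCC), the MEF3 core (TCAGGTT) and the TATA box (TATAAA). A match describes these letters and not a bound site.
Mylpf (chr7:127211358-127211657, plus strand): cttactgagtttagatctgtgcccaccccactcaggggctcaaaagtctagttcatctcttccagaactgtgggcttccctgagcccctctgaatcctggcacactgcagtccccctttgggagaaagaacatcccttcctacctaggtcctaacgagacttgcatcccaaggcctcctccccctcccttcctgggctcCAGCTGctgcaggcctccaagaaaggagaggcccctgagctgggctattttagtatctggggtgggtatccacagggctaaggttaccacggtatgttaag
Myl1 (chr1:66945007-66945306, minus strand): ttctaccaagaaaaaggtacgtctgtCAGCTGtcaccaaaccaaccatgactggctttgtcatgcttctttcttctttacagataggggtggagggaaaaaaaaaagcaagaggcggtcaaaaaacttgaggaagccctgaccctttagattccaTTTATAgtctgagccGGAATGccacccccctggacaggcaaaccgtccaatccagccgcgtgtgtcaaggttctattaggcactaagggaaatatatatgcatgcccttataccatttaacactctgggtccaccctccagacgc
Tpm1 (chr9:67049164-67049463, minus strand): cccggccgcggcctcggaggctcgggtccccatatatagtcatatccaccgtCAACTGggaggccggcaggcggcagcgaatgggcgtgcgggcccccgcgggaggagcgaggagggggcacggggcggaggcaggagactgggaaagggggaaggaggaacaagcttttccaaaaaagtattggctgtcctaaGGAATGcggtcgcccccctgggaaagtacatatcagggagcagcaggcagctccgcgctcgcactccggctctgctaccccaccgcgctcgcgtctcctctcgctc
Pvalb (chr15:78206351-78206650, minus strand): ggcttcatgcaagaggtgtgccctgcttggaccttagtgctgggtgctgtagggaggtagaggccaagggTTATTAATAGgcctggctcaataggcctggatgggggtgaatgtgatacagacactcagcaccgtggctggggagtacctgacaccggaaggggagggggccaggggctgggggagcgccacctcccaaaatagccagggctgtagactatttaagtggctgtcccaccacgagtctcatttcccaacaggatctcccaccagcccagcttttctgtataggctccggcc
Casq1 (chr1:172219846-172220145, minus strand): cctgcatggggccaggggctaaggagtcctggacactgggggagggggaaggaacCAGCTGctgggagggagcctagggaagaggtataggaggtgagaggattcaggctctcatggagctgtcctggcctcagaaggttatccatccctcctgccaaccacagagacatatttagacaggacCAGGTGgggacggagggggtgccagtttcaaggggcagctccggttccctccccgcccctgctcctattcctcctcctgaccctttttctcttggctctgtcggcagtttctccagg
Atp2a1 (chr7:126463024-126463323, minus strand): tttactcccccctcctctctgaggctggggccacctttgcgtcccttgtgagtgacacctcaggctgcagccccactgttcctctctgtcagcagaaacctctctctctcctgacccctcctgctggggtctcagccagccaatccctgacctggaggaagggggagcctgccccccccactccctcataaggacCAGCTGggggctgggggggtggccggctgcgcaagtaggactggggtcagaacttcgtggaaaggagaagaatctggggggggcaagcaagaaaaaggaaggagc
The E-box spelled CAGCTG was present in the windows of Mylpf, Myl1, Casq1 and Atp2a1, or 4 of 7 members, against 16.3% of 32851 windows of this length. CAGCTG and CACCTG are both forms of CANNTG, so the 3 counts overlap. It began at position -51 in Mylpf and -55 in Atp2a1, close to the start site, and at -224 in Myl1 and -195 in Casq1. The form CACCTG was in 2 of 7 (Casq1 and Tnnc2), against 20.2%, and any CANNTG in 6 of 7, against 72.3% (a further start site of Pvalb, not shown, has 2 in its window). The M-CAT element occurred in Myl1 and Tpm1 (2 of 7, against 14.7%) and the MEF2 site in Pvalb alone (1 of 7, against 3.19%). The TATA box was found in Myl1 (1 of 7, against 13.6%). The CArG box (1.63% of windows) and the MEF3 core (4.07%) matched in 0 of 7. The CAGCTG letters were thus shared by 3 of the 5 members that fell and by Atp2a1, which did not pass the test within a muscle.

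Mylpf, Myl1, Tpm1, Pvalb and Casq1 fell together. These 5 were lower than sham in the gastrocnemius at both lesion levels and in the triceps at the T3 level, and they were the members called in each of these 3 comparisons. A gene was called at an adjusted p under 0.05. In the gastrocnemius, T3 against sham, 5 of 10 members were lower and 0 higher, where 6.65% of all genes were called lower and 27.1% higher (33.7% in either direction). The groups did not overlap for 4 of these 5, against 5.81% of all genes with T3 lower and 23.9% with T3 higher. For T9 against sham it was again 5 lower and 0 higher, against 5.67% and 37.6% (43.2% in either direction), and 4 of the 5 did not overlap, against 4.82% (lower) and 34.8% (higher). In the triceps, T3 against sham, 5 were lower and 0 higher, against 4.32% and 19% (23.3% in either direction), and 3 of the 5 did not overlap, against 1% (lower) and 5.62% (higher). For T9 against sham in the triceps, limma called 0 of 10 members, where 1 gene in all passed (0.00889%, higher). There, 4 members had an unadjusted p under 0.05 (Mylpf, Myl1, Tpm1 and Pvalb), as did 10.5% of all genes, and voom weights on the recovered reads also called 0. No member's groups were separate there, against 0.0444% of genes (lower) and 0.818% (higher). The median change of the 10 members was -0.71, -0.46, -0.64 and -0.23 in these 4 comparisons, against 0.27, 0.40, 0.23 and 0.17 over all genes. Within a muscle, both lesion levels were compared with the same sham libraries. Since whole muscle was sampled, fewer fast fibres and less RNA of these genes per fibre cannot be told apart.

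**Figure D1:**
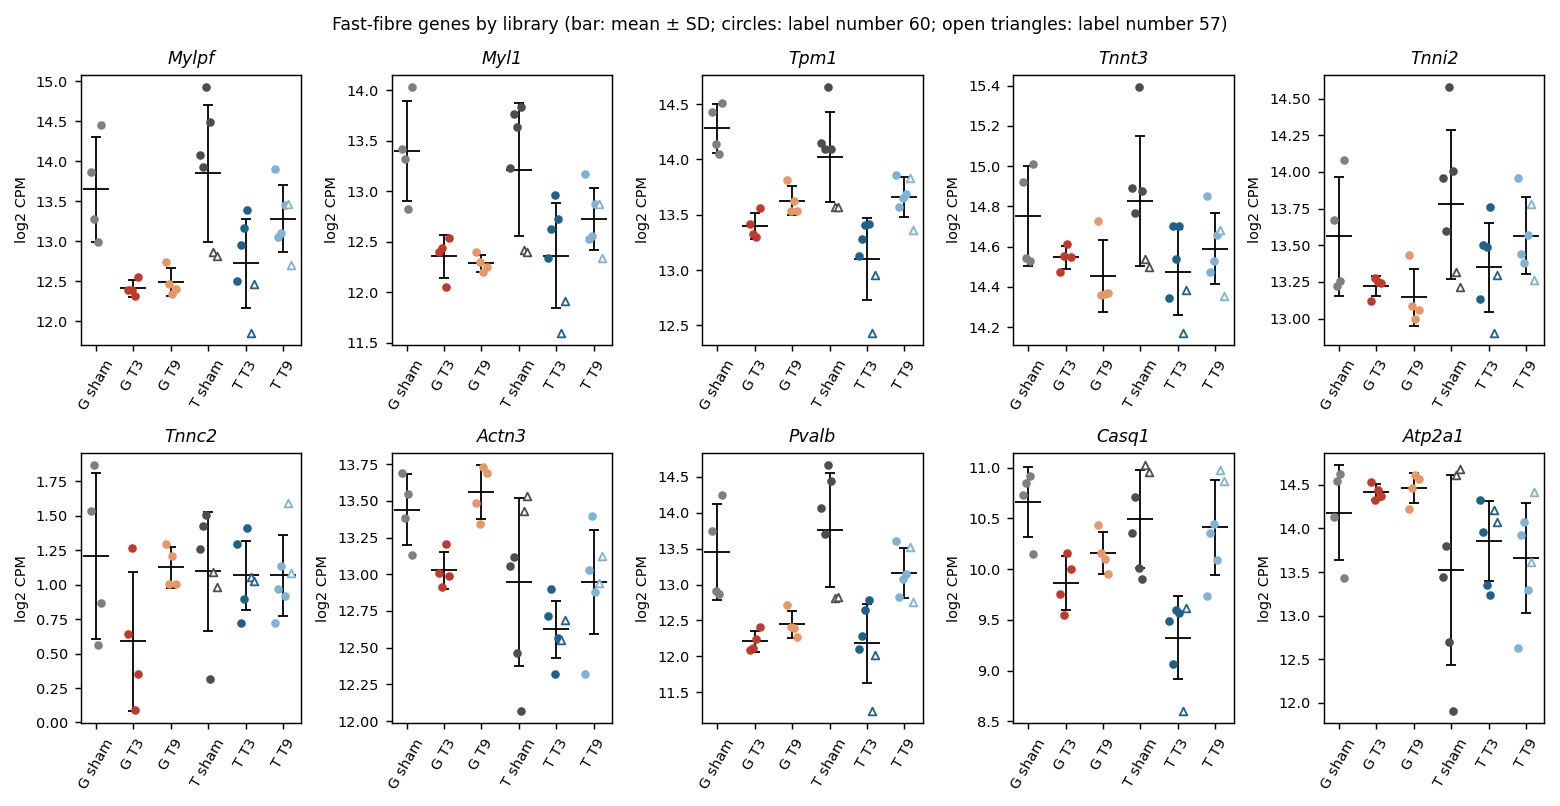
Level of each of the 10 members in every library (vertical axis, log2 CPM) by muscle and surgery (G, gastrocnemius, n = 4; T, triceps, n = 6), with the group mean and SD as bars, circles for label number 60 and open triangles for 57. The gastrocnemius T3 and T9 libraries lie below all sham libraries for Mylpf, Myl1, Tpm1 and Pvalb, and Atp2a1 does not separate the groups.

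The scale of the values matters for the other members. With each library centred on its own median, the medians of all genes in the 4 comparisons with sham (0.27, 0.40, 0.23 and 0.17) moved to near 0, and the same 5 members were lower in the same 3 comparisons. Relative to the median gene, Actn3 was then also called lower after T3 in the gastrocnemius (-0.69, adjusted p = 0.0086) and in the triceps (-0.56, adjusted p = 0.047), and Tnnt3 (-0.70, adjusted p = 0.031) and Tnni2 (-0.81, adjusted p = 0.030) in the gastrocnemius after T9. Quantile normalization, in contrast, ended the call of Tpm1 in the gastrocnemius after T3 (-0.42, adjusted p = 0.13), and those of Tpm1, Pvalb and Casq1 in the gastrocnemius after T9 (-0.46, -0.80 and -0.40, adjusted p = 0.11, 0.068 and 0.14).

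Mylpf encodes the phosphorylatable regulatory light chain of fast myosin (ENSMUSG00000030672, chr7:127208890-127214298, GRCm38). Its gastrocnemius levels were 14950.4, 9956, 8121 and 22469 CPM in sham, 5379, 5348, 5085 and 6026 CPM after T3, and 6823, 5654, 5204 and 5397 CPM after T9. Every injured library was below the lowest sham library, and the sham libraries ranged over 2.77-fold. The log2 change was -1.24 ± 0.25 after T3 (SE, adjusted p = 0.0028) and -1.16 ± 0.25 after T9 (adjusted p = 0.0039). In the triceps the lowest, median and highest sham libraries held 7218, 16438 and 31263 CPM, the T3 libraries 3704, 6864 and 10746 CPM, and the T9 libraries 6657, 10026 and 15384 CPM. The groups overlapped there, and both sham libraries of label number 57 were the lowest of sham, at 7480.3 and 7218 CPM. The triceps change was -1.13 ± 0.26 after T3 (adjusted p = 0.0044) and -0.57 ± 0.26 after T9 (adjusted p = 0.45, 95% interval -1.11 to -0.04).

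Myl1 encodes the essential light chain of fast myosin (ENSMUSG00000061816, chr1:66924295-66945404). It stood at 10972, 10209, 7242 and 16797 CPM in gastrocnemius sham, at 5388, 5541, 4245 and 5968 CPM after T3 and at 5412, 5061, 4722 and 4878 CPM after T9. Neither injured group overlapped sham, and both light chains fell to a similar level in CPM. The changes were -1.04 ± 0.22 (adjusted p = 0.0030) and -1.11 ± 0.22 (adjusted p = 0.0021). In the triceps, the lowest, median and highest values were 5399, 11198 and 14611 CPM in sham, 3104, 5751 and 8004 CPM after T3 and 5174, 6773 and 9230.0 CPM after T9, with overlap throughout. Myl1 changed by -0.85 ± 0.20 after T3 (adjusted p = 0.0054) and by -0.49 ± 0.20 after T9 (adjusted p = 0.43).

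Tpm1 encodes alpha-tropomyosin, the strand that covers the myosin sites of the thin filament (ENSMUSG00000032366, chr9:67022590-67049406). Gastrocnemius sham libraries held 21985, 18058, 16973 and 23278 CPM, T3 libraries 10949, 10282, 10047 and 12049.8 CPM, and T9 libraries 14399.7, 11887, 12638 and 11858 CPM. All injured libraries lay below all sham libraries, and the sham libraries spread over only 1.37-fold. Tpm1 fell by 0.88 ± 0.16 on the log2 scale after T3 (adjusted p = 0.0012) and by 0.65 ± 0.16 after T9 (adjusted p = 0.0066). In the triceps it was at 12122, 17506 and 25801 CPM in sham (lowest, median, highest) and 5532, 9454 and 10933 CPM after T3, with no overlap, a change of -0.92 ± 0.16 (adjusted p = 0.00068). After T9 it was at 10553, 13039.9 and 14819.8 CPM, which overlapped sham (-0.36 ± 0.16, adjusted p = 0.45). The light chain and tropomyosin decreases of the triceps after T3 were largest in size for Mylpf and smallest for Myl1.

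The fast troponin genes did not pass the test in any comparison on the deposited scale. Tnnt3, the tropomyosin-binding subunit (ENSMUSG00000061723, chr7:142498836-142516009), and Tnni2, the inhibitory subunit (ENSMUSG00000031097, chr7:142441808-142444410), lie on the same stretch of chromosome 7. Tnnt3 was at 30997, 23912, 23668 and 33049 CPM in gastrocnemius sham, at 22730.5, 24047, 25087 and 23924 CPM after T3 and at 27085, 21026, 21105 and 21141 CPM after T9. The groups overlapped, and the changes of -0.21 ± 0.17 (adjusted p = 0.36) and -0.30 ± 0.17 (adjusted p = 0.17) did not pass the test. Tnni2 was at 13060.0, 9578, 9801 and 17347 CPM in sham and at 8894, 9905, 9727 and 9691 CPM after T3 (-0.34 ± 0.19, adjusted p = 0.19). After T9 it was at 11063, 8717, 8160.4 and 8542 CPM (-0.42 ± 0.19, adjusted p = 0.096), and the T9 replicate with the highest value overlapped sham. In the triceps after T3, Tnnt3 changed by -0.35 ± 0.15 (adjusted p = 0.096) and Tnni2 by -0.43 ± 0.19 (adjusted p = 0.11). The 95% interval for Tnnt3 in the gastrocnemius after T3 ran from -0.57 to 0.16, so a fall of the size seen for Mylpf is outside it, while a smaller one is not.

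Tnnc2, the calcium-binding subunit (ENSMUSG00000017300, chr2:164777161-164779967), stood far below its partners. Its 16 to 184 reads per library gave 1.07 to 3.65 CPM, against 7662 CPM or more of Tnni2. Of its 800 exon bases, 592 (74%) lie within an exon of Ube2c on the opposite strand, and Ube2c was itself at 1.07 to 6.06 CPM. The library kit marks strand, but the sources used here do not say whether the counting used it, so the level of Tnnc2 in this table is uncertain. No change of Tnnc2 was called in any comparison, with -0.62 ± 0.31 in the gastrocnemius after T3 (adjusted p = 0.14) and -0.03 ± 0.21 in the triceps.

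Actn3 encodes the alpha-actinin of fast fibres, which ties thin filaments to the Z-disc (ENSMUSG00000006457, chr19:4861216-4877909). In the gastrocnemius it was at 13228, 10678, 11991 and 8956 CPM in sham, 8232, 7714, 9456 and 8112 CPM after T3, and 11447, 10378, 13579 and 13228 CPM after T9. T3 and sham overlapped by 1 library each, T9 and sham overlapped, and every T3 library lay below every T9 library. The change was -0.41 ± 0.17 after T3 (adjusted p = 0.069) and 0.12 ± 0.17 after T9 (adjusted p = 0.56). T3 was lower than T9 by -0.53 ± 0.17 (adjusted p = 0.13), where groups were separate with T3 lower for 12.3% of all genes (with T3 higher, 5.89%). That difference passed with library weights, with these 2 groups alone in the fit, and without the 4 libraries of lowest median (adjusted p = 0.037). In the triceps, Actn3 had medians of 8713, 6339 and 8103 CPM in sham, T3 and T9 (-0.32 ± 0.22 after T3, adjusted p = 0.28). Without those 4 libraries the triceps T3 change was -0.65 (adjusted p = 0.0086) and the gastrocnemius one -0.51 (adjusted p = 0.016).

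Pvalb, the cytosolic calcium buffer of fast fibres (ENSMUSG00000005716, chr15:78191114-78206400), had the largest decrease of the members in the triceps after T3. Its gastrocnemius levels were 13796, 7728, 7506 and 19443 CPM in sham, 4343, 4434, 4835 and 5419 CPM after T3, and 6707, 5415, 5374 and 4950.2 CPM after T9. Both injured groups lay wholly below sham, with changes of -1.24 ± 0.26 (adjusted p = 0.0034) and -1.0 ± 0.26 (adjusted p = 0.0095). In the triceps the lowest, median and highest levels were 7214, 15276 and 25963 CPM in sham and 2409.9, 4681 and 7078 CPM after T3. Those groups were separate, as 1% of all genes were with T3 lower, and Pvalb was 2.98-fold lower (-1.58 ± 0.26, adjusted p = 0.00038). After T9 it was at 6928, 8861 and 12439.9 CPM (-0.60 ± 0.26, adjusted p = 0.44).

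Casq1, the main calcium-binding protein of the sarcoplasmic reticulum (ENSMUSG00000007122, chr1:172209894-172219868), differed most between injury levels in the triceps. It stood at 955, 1497 and 2085 CPM in triceps sham (lowest, median, highest), at 388, 739 and 786 CPM after T3, and at 854, 1349.7 and 2017 CPM after T9. T3 libraries lay below all sham and all T9 libraries, while T9 and sham overlapped. The change was -1.17 ± 0.23 for T3 against sham (adjusted p = 0.0016) and -0.08 ± 0.23 for T9 against sham (adjusted p = 0.86). In the gastrocnemius, Casq1 was at 1705, 1841, 1935 and 1138 CPM in sham, 863, 748, 1141 and 1022 CPM after T3, and 1386, 1142, 1095 and 989 CPM after T9. Sham replicate 4, at 1138 CPM, overlapped both injured groups, and the changes were -0.80 ± 0.19 (adjusted p = 0.0067) and -0.50 ± 0.19 (adjusted p = 0.047). The T9 call is the weakest of the 5: it was lost without sham replicate 1, 2 or 3 or T9 replicate 2, 3 or 4, where the change ranged from -0.42 to -0.67 over the 8 libraries left out. It held in 10 of 16 other settings. Those that lost it were quantile normalization, no variance trend, robust variances, only the 2 groups compared, all 30 libraries in the fit and a replicate block.

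Atp2a1 encodes SERCA1, the calcium pump of fast fibres (ENSMUSG00000030730, chr7:126445858-126463108), and it was not called within either muscle. Gastrocnemius levels were 17972, 23887, 25180.0 and 11052 CPM in sham, 23683, 20551, 22244 and 21266 CPM after T3, and 19081, 22562, 24979 and 24366 CPM after T9. Sham replicate 4 was the lowest and the groups overlapped (0.24 ± 0.23 after T3, adjusted p = 0.45, and 0.28 ± 0.23 after T9, adjusted p = 0.33). In the triceps it ranged over 6.86-fold among sham libraries, from 3832 to 26293 CPM, with medians of 12706, 16584 and 14024 CPM in sham, T3 and T9. The change was 0.33 ± 0.34 after T3 (adjusted p = 0.48), with a 95% interval of -0.39 to 1.06. Its sign turned with the scaling in the gastrocnemius, to -0.04 (T3) and -0.12 (T9) with centring and to -0.22 and -0.23 with the length and GC trend removed. Of its exon bases, 21.9% lie under exons of Rabep2 on the opposite strand, at 10.3 to 44.8 CPM.

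**Figure D2:**
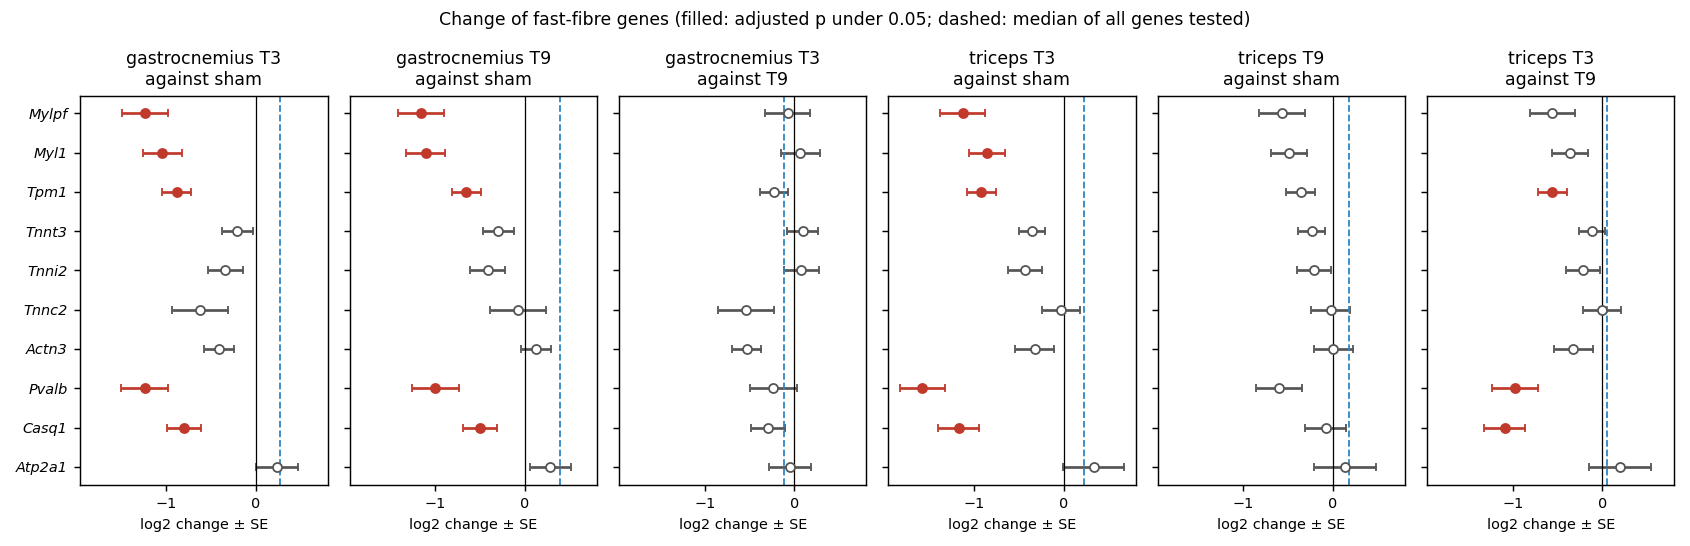
Log2 change of each member (horizontal axis, ± SE) in the 6 comparisons within a muscle, with filled points at an adjusted p under 0.05 and a dashed line at the median of all genes tested. The 5 filled members on the left repeat in the triceps after T3, none is filled in the triceps after T9, and 3 are filled for triceps T3 against T9.

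Lesion level was compared directly in each muscle. In the triceps, 3 members were lower after T3 than after T9 and 0 higher, where 2.65% of all genes were lower and 4.95% higher (7.6% in either direction): Casq1 by -1.09 ± 0.23 (adjusted p = 0.0065), Pvalb by -0.98 ± 0.26 (adjusted p = 0.024) and Tpm1 by -0.56 ± 0.16 (adjusted p = 0.040). Casq1 was the only one of them whose groups were separate, as were 1.67% of all genes with T3 lower and 3.3% with T3 higher. Casq1 stayed called without any 1 of the 12 libraries. The Pvalb call was lost without T3 replicate 1, 2 or 5 or T9 replicate 1, 5 or 6, and that of Tpm1 without T3 replicate 1, 2 or 5 or T9 replicate 1, 4, 5 or 6. Both were also lost with quantile normalization, with centring and with no term for the label number, and that of Tpm1 further with a replicate block, with the length and GC trend removed and with median-of-ratios voom. Adipocyte markers moved with this comparison: 4 of the 4 in the table were lower after T3 than after T9 (median -0.98), 1 of them called (Adipoq -1.02 ± 0.30, adjusted p = 0.042), and they summed to 24.9 to 63.6 CPM after T3 and 61.2 to 118 CPM after T9. The 7 fibroblast markers were all lower after T3 (median -0.62, 0 called by limma). Of 7 macrophage markers, 6 were lower in sign (median -0.07), and only Cd68 was called, as higher (3.01 ± 0.69, adjusted p = 0.011). Their part in the 3 calls was not tested. Within the label numbers, Casq1 changed by -0.72 among the libraries of 60 (adjusted p = 0.20, 4 against 4) and by -1.81 among those of 57 (adjusted p = 0.027, 2 against 2). In the gastrocnemius, 0 members differed between T3 and T9 by limma, against 0.898% of all genes with T3 lower and 0.729% with T3 higher (1.63% in either direction). Actn3 alone had an unadjusted p under 0.05, and voom weights called 0. The 95% interval of the T3 minus T9 difference ran from -0.62 to 0.47 for Mylpf and from -0.80 to 0.33 for Pvalb, so smaller differences between lesion levels were not detectable with 4 mice.

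The triceps result after T3 was also fitted within each label number, and a difference between the numbers was not tested. Among libraries of 60, 5 members were called (Pvalb -1.77, Mylpf -1.35, Myl1 -0.95, Tpm1 -0.94 and Casq1 -0.81). Among the 4 libraries of 57 only Casq1 was called (-1.89, adjusted p = 0.015), and Pvalb stood at -1.20 (adjusted p = 0.080), Tpm1 at -0.88 (adjusted p = 0.11), Mylpf at -0.68 (adjusted p = 0.26) and Myl1 at -0.65 (adjusted p = 0.18), all in the same direction. Without triceps sham replicate 4, which carried the macrophage and fibroblast markers, the same 5 were called (Pvalb -1.49, Casq1 -1.27, Mylpf -1.06, Tpm1 -0.94 and Myl1 -0.78). After T9 the signs of Mylpf, Myl1, Tpm1 and Pvalb differed between the label numbers, with Pvalb at -1.06 among 60 and 0.32 among 57 (adjusted p = 0.18 and 0.79).

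Sham libraries varied widely in a way that touches these results. In the triceps, sham libraries with much Mylpf held little Atp2a1: triceps sham replicates 3 and 4 had 31263 and 23068 CPM of Mylpf and 6665 and 3832 CPM of Atp2a1, while replicates 5 and 6 had 7480.3 and 7218 CPM of Mylpf and 25066 and 26293 CPM of Atp2a1. The log2 difference of Mylpf minus Atp2a1 ran from -1.87 to 2.59 in triceps sham, from -1.63 to 1.02 in gastrocnemius sham, and from -2.14 to -1.82 in gastrocnemius T3. The 3 sham libraries of lowest median were among those rich in Mylpf and poor in Atp2a1. The longest annotated transcript of Mylpf has 766 bases, that of Pvalb 977, Myl1 1082, Casq1 1847, Actn3 2887, Tpm1 2890 and Atp2a1 3477. Among the fast troponins, that of Tnnc2 has 700 bases, Tnni2 895 and Tnnt3 1079. Transcript length as a cause of the calls was not tested. With the trend of each library on transcript length and GC content removed, the 5 members stayed lower in all 3 comparisons (Mylpf -1.15, -1.09 and -1.07 in gastrocnemius T3, gastrocnemius T9 and triceps T3), and Actn3 was called in addition after T3 in the gastrocnemius (-0.86) and in the triceps (-0.72), as was Tnni2 in the gastrocnemius after T9 (-0.43) and in the triceps after T3 (-0.46). Without the 4 libraries of lowest median, the 5 were again lower in all 3 (Mylpf -0.97, -0.89 and -0.81). With the library median as a covariate, Mylpf, Myl1 and Pvalb were no longer called in the gastrocnemius after T3 (-0.51, -0.47 and -0.55, adjusted p = 0.17, 0.16 and 0.19), and only Casq1 was called after T9 (-1.24, adjusted p = 0.0096). In the triceps after T3 all 5 passed with that covariate. In the gastrocnemius the library medians were 3.66 to 4.06 in sham, 4.05 to 4.26 after T3 and 4.27 to 4.33 after T9, so that there the median and the surgery can hardly be told apart.

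**Figure D3:**
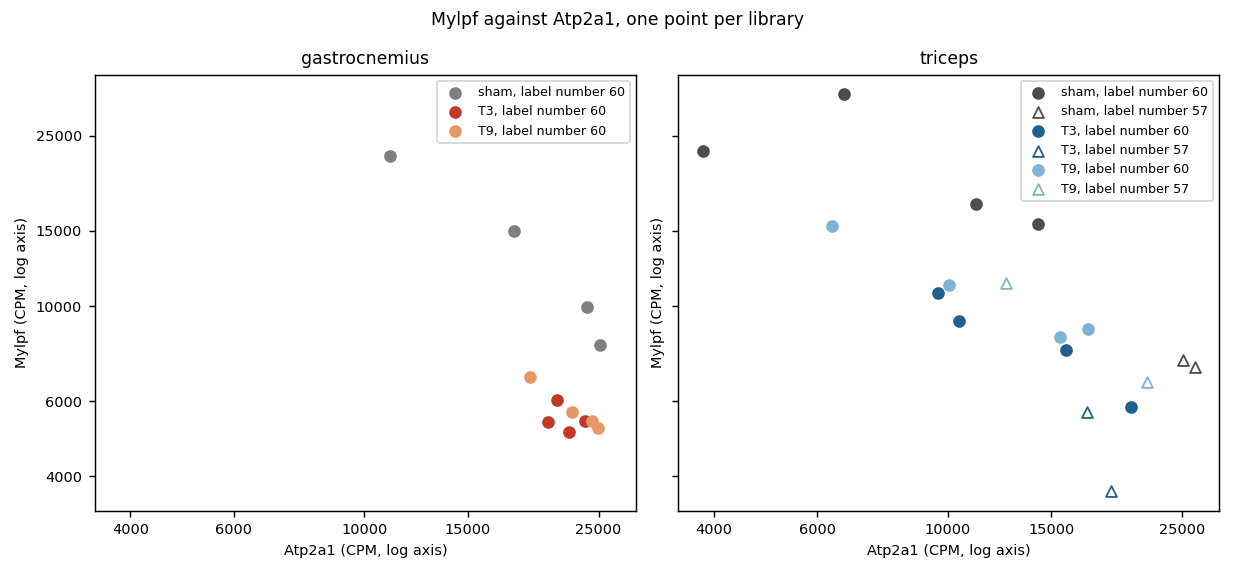
Mylpf (vertical axis, CPM on a log scale) against Atp2a1 (horizontal axis, CPM on a log scale), 1 point per library, with circles for label number 60 and open triangles for 57. Sham libraries run from high Mylpf and low Atp2a1 to the reverse, and the gastrocnemius T3 and T9 libraries gather below all 4 gastrocnemius sham libraries.

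The 10 genes took a smaller share of all reads after injury. They made up 13% ± 1.95 of reads in gastrocnemius sham, 9.11% ± 0.21 after T3 and 9.69% ± 0.48 after T9 (SD, n = 4). In the triceps it was 12.9% ± 2.64 in sham, 8.27% ± 0.99 after T3 and 10% ± 0.73 after T9 (SD, n = 6). Gastrocnemius sham libraries held 11.2% to 15.4% and no injured gastrocnemius library reached that range, with T9 at most at 10.3%. The triceps T3 libraries (6.62% to 9.26%) lay below all sham libraries (10.5% to 17.7%), while T9 (9.27% to 11%) overlapped sham. Tnnt3 took the largest part, at 1.85% to 4.30% of reads. Per kilobase of exon in gastrocnemius sham the order was Tnnt3 (17629 ± 3050 CPM per kilobase, SD, n = 4), Mylpf (13064 ± 6041), Pvalb (11641 ± 5463), Tnni2 (8314 ± 2427), Atp2a1 (5615 ± 1858), Myl1 (5451 ± 1928), Actn3 (3865 ± 631), Tpm1 (3095 ± 468), Casq1 (848 ± 183) and Tnnc2 (3.08 ± 1.25). Neighbours from Tnnt3 to Tpm1 overlapped each other, Tpm1 lay above Casq1, and Casq1 above Tnnc2. In triceps sham the order was the same except that Myl1 stood above Atp2a1, which overlapped it. The divisor was all annotated exon bases of a gene, and the order depends on that choice. It was 6485 bases for Tpm1 and 2074 for Myl1, whose longest transcripts have 2890 and 1082. For Atp2a1 both are 3477.

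**Figure D4:**
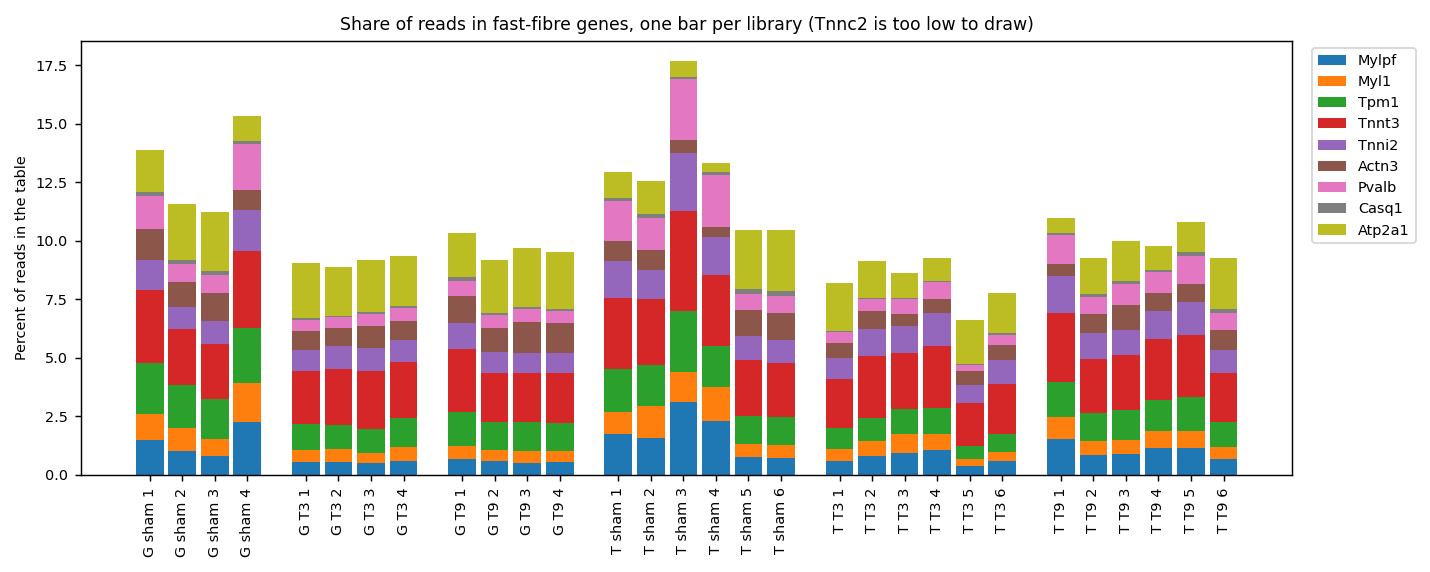
Percent of the reads in each library (vertical axis) that fell in 9 of the 10 members, 1 bar per library grouped by muscle and surgery (G, gastrocnemius; T, triceps), with colours for genes. Sham bars reach 11.2% to 15.4% in the gastrocnemius, and no bar of an injured gastrocnemius library reaches 11.2%.

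Fast-fibre genes were set beside their counterparts, the genes that slow fibres or, for Actn2, all fibres use in the same place. The log2 difference within a library is described with no test. Mylpf minus Myl2 rose in mean from 6.27 ± 0.73 in gastrocnemius sham to 7.34 ± 0.40 after T3 and 8.63 ± 0.69 after T9 (SD, n = 4) and Myl2, the slow regulatory light chain, was at 196 ± 111 CPM in sham against 34.7 ± 10.6 and 16.1 ± 8.22 CPM. All T9 values lay above all sham values. In the triceps the same difference was 6.29 ± 0.99, 5.34 ± 0.72 and 5.57 ± 0.23 (SD, n = 6), with overlap. Casq1 minus Casq2 was 5.23 ± 0.68 in triceps sham and 3.69 ± 0.53 after T3, with overlap, while in the gastrocnemius it was 5.79 ± 0.65 and 6.52 ± 0.37. Actn3 minus Actn2 was 4.12 ± 0.60 in triceps sham and 2 ± 0.71 after T3, with no overlap, and 3.98 ± 0.51 and 3.00 ± 0.33 in the gastrocnemius, also with none. Actn2, the alpha-actinin of all fibres, rose in the triceps after T3 by 1.79 ± 0.32 (adjusted p = 0.00081). The troponin pairs overlapped sham in both muscles, and in the gastrocnemius sham replicate 2 stood apart. Tnni2 minus Tnni1 was 11.9 in that library and 7.71 to 7.79 in the other 3 sham libraries, while all T3 and T9 values lay at 8.54 to 10.03, above those 3. Replicate 2 held 2.49 CPM of Tnni1, 3.07 of Tnnc1 and 11.7 of Tnnt1, the slow troponins, against at least 46.7, 70.1 and 105 CPM in the other 3.

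**Figure D5:**
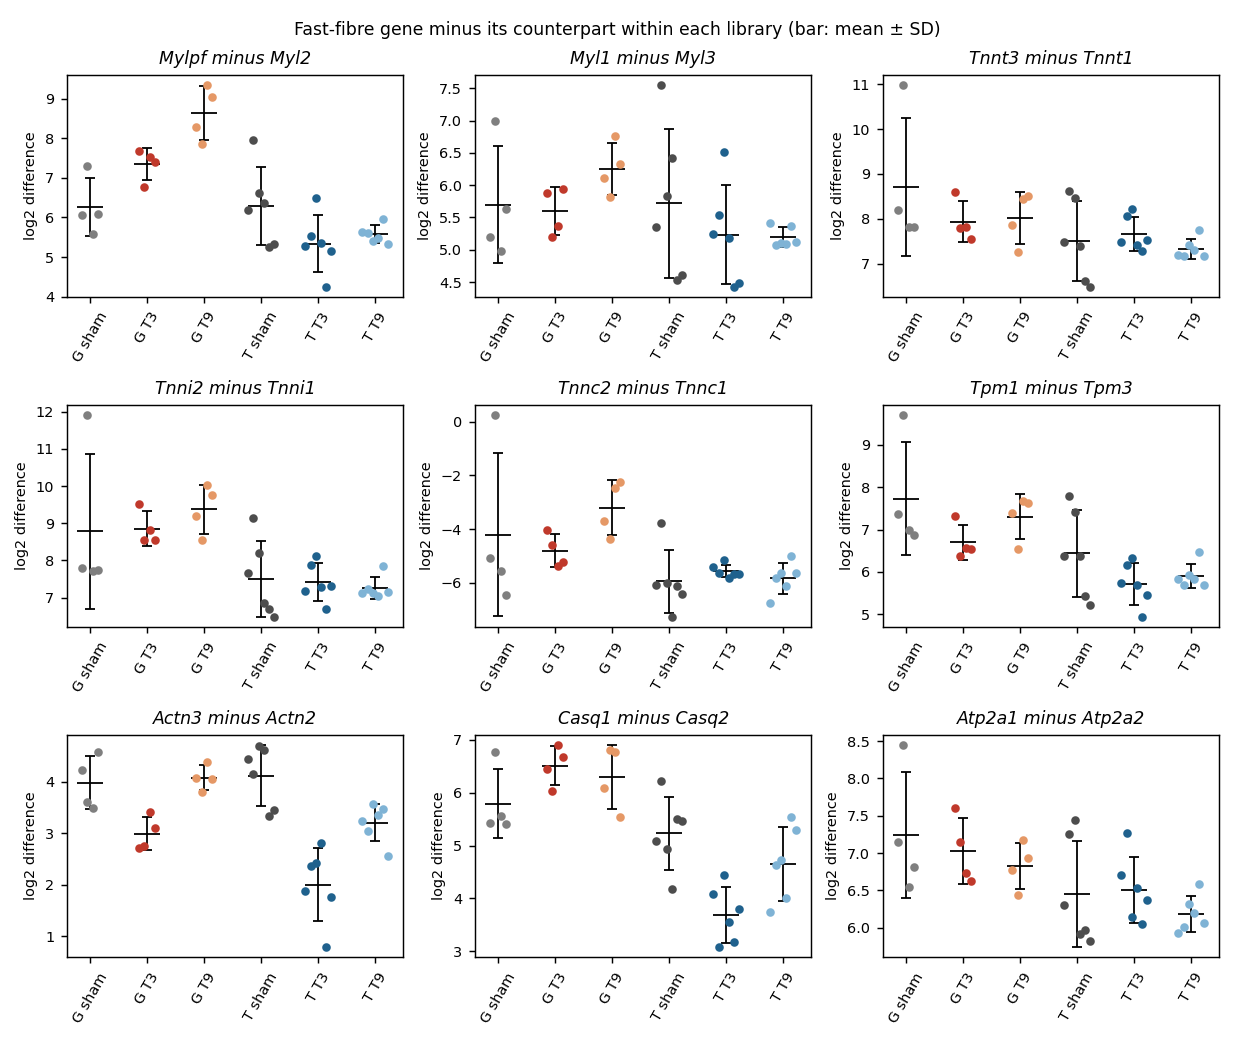
Log2 CPM of a fast-fibre gene minus that of its counterpart in the same library (vertical axes), for 9 pairs by muscle and surgery (G, gastrocnemius; T, triceps), with points for libraries and bars for mean and SD. Mylpf minus Myl2 is higher after T9 than in any sham library of the gastrocnemius, and Actn3 minus Actn2 is lower after T3 than in any sham library of the triceps.

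Other genes of the fibre were counted by list, to be read against the shares of all genes called: 27.1% higher and 6.65% lower for gastrocnemius T3, 37.6% and 5.67% for gastrocnemius T9, and 19% and 4.32% for triceps T3, each against sham. Of 9 other fast-fibre sarcomere genes (Myh1, Myh2, Myh4, Mybpc2, Myoz1, Myoz3, Tmod4, Mylk2 and Myom2), 3 were lower in the gastrocnemius after T3 and 2 higher, with a median of 0.16. Myoz3 (-1.29 ± 0.15, adjusted p = 5e-05) and Myoz1 (-0.88 ± 0.18, adjusted p = 0.0031) encode Z-disc proteins of fast fibres, and Myh2, the myosin heavy chain of type 2A fibres, stood at -1.64 ± 0.46 (adjusted p = 0.015). Mylk2, the kinase of the regulatory light chain, rose by 0.54 ± 0.17 (adjusted p = 0.025). After T9 the same 3 names were lower and 0 higher (Myoz3 -1.19, Myoz1 -0.75, Myh2 -1.74). In the triceps after T3, 2 were lower (Myoz3 -1.48, adjusted p = 0.0039, and Myoz1 -0.80, adjusted p = 0.0023), and Myoz3 was also lower than after T9 (-1.66, adjusted p = 0.0045). The effect of T3 on Myh2 differed between the muscles (gastrocnemius minus triceps -3.57 ± 0.57, adjusted p = 0.0080).

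Calcium store and release genes around Casq1 and Atp2a1 were called in both directions. Of 19, 1 was higher and 3 lower in the gastrocnemius after T3 (median -0.02), 3 and 1 after T9 (-0.03), and 1 and 2 in the triceps after T3 (-0.12), that is 4, 4 and 3 in either direction, where all genes gave 33.7%, 43.2% and 23.3%. Of these, Jph2, which joins the surface membrane to the store, fell by 1.03 ± 0.24 in the gastrocnemius after T3 (adjusted p = 0.0051). Trdn, triadin, which binds calsequestrin at the release channel, fell by 0.64 ± 0.20 there (adjusted p = 0.028) and by 0.67 ± 0.21 in the triceps (adjusted p = 0.027). Mrln, the micropeptide that inhibits SERCA, fell by 1.59 ± 0.30 in the triceps after T3 (adjusted p = 0.0012). Cacng1, a subunit of the calcium channel of the surface membrane, rose by 1.32 ± 0.19, 1.34 ± 0.19 and 0.84 ± 0.17 in gastrocnemius T3, gastrocnemius T9 and triceps T3.

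Slow-fibre genes moved differently in the muscles. Of 15 tested of 16, 4 were lower and 1 higher in the gastrocnemius after T3, and 5 and 1 after T9, with Myl2 at -2.31 ± 0.46 and -3.53 ± 0.46 and Casq2, the slow calsequestrin, at -1.52 ± 0.30 and -1.01 ± 0.30. Without gastrocnemius sham replicate 2, which was low in slow troponins, 7 were lower and 1 higher after T3, and 8 and 1 after T9. In that fit 8.97% of all genes were called lower and 33.4% higher after T3, and 6.85% and 42.9% after T9. Tnni1 was then called in both comparisons (-1.56 ± 0.37, adjusted p = 0.0057, and -2.16 ± 0.37, adjusted p = 0.00088). In the triceps after T3, 3 were higher and 0 lower: Ankrd2 (2.0 ± 0.34), Myoz2 (0.91 ± 0.18) and Mybpc1 (0.77 ± 0.24). The T3 effect differed between the muscles for 4 of these 15 genes, all lower, against 1.1% of all genes lower and 0.142% higher. They were Myl2 (-2.07 ± 0.45, adjusted p = 0.040), Casq2 (-2.02 ± 0.30, adjusted p = 0.0059), Myoz2 (-2.33 ± 0.28, adjusted p = 0.0014) and Ankrd2 (-1.89 ± 0.41, adjusted p = 0.044). Without gastrocnemius sham replicate 2, only the 2 differences for Casq2 and Myoz2 were called, against 1.09% lower and 0.0622% higher. Those for Ankrd2 and Myl2 (-2.01 ± 0.50, adjusted p = 0.087) were not. For the 10 fast-fibre members no such difference was called.

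Sarcomere genes that all fibres use were called higher in 8 of 22 cases and lower in 1 for gastrocnemius T3 (median 0.51), in 6 and 1 for gastrocnemius T9 (0.28) and in 6 and 0 for triceps T3 (0.49). These counts lie near the shares of all genes, with more higher than lower calls in both. Nrap, a scaffold of growing myofibrils, was at 1.98 ± 0.25 and 1.21 ± 0.25 in the gastrocnemius, and Lmod2, which lengthens thin filaments, at 1.5 ± 0.24 in the gastrocnemius and 1.49 ± 0.25 in the triceps after T3. Myot, a Z-disc protein, rose by 0.64 ± 0.14 and 1.07 ± 0.13 in these. Of 7 tested genes of a developmental list, 2 were higher in the gastrocnemius after T3 (Tnnt2 at 1.94 ± 0.25 and Ncam1 at 1.44 ± 0.30) and 4 higher and 1 lower after T9. Ncam1 encodes an adhesion molecule of the cell surface and not a sarcomere protein. In the triceps after T3, 0 of the 7 were called higher and 1 lower, with 5 lower in sign (median -0.50). Of 14 ubiquitin ligases and chaperones that act on the sarcomere, 7 were higher and 1 lower, 8 and 1, and 4 and 0 in gastrocnemius T3, gastrocnemius T9 and triceps T3. Fbxo30, a ligase of the wasting programme, rose in each (0.79 ± 0.15, 0.94 ± 0.15 and 0.55 ± 0.18), and Cryab, a chaperone of desmin, by 1.42 ± 0.19 in the triceps.

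Regulators of the fibre programme were called in both directions. Of 34 tested of 35, the gastrocnemius had 12 higher and 4 lower after T3, and 13 and 2 after T9, near the shares of all genes, and the triceps 4 and 4 after T3, against 19% and 4.32%. Vgll2, a cofactor of TEAD factors, rose by 1.49 ± 0.25 in the gastrocnemius after T3 and by 1.98 ± 0.27 in the triceps after T3, and in the gastrocnemius it was higher after T3 than after T9 (1.66 ± 0.25, adjusted p = 0.0094). Maf, one of the large Maf factors, which act in fast type 2B fibres, fell by 1.16 ± 0.23 in the triceps after T3 and was lower than after T9 (-1.29 ± 0.23, adjusted p = 0.0021). Ppp3ca, the catalytic subunit of calcineurin, was lower after T3 than after T9 in the gastrocnemius (-0.73 ± 0.15, adjusted p = 0.028) and in the triceps (-0.54 ± 0.12, adjusted p = 0.0075). Eya4, a transcriptional cofactor of muscle, was lower after T3 than after T9 in the gastrocnemius (-1.05 ± 0.20, adjusted p = 0.023). These lists were chosen with results of these data known, so their counts describe and do not support.

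Markers of other cells moved with some groups, and their part in the members' changes was not tested. Their counts are to be read against all genes called higher: 27.1%, 37.6% and 19% for gastrocnemius T3, gastrocnemius T9 and triceps T3. The shares called lower were 6.65%, 5.67% and 4.32%. The 3 satellite cell markers in the table summed to 20.3 to 30.6 CPM in gastrocnemius sham, 59.2 to 89.4 after T3 and 46.8 to 61.8 after T9, of which 1 and 2 markers were called higher, and Pax7 was not analysed here. In the triceps they summed to 14.5 to 31.4, 24.8 to 78.7 and 23.9 to 54.7 CPM in sham, T3 and T9. After T3, 1 of 3 was called higher there (1.13), while 2 of 3 were lower in sign (median -0.53). Mitochondrial genes took 9.54% to 13.1% of reads in gastrocnemius sham, 7.48% to 8.06% after T3 and 7.66% to 9.27% after T9, without overlap with sham, and in the triceps 11% to 16.8%, 10.4% to 16.6% and 12.1% to 17.5%, with overlap. The 7 macrophage markers found summed to 17.1 to 58.5, 39 to 49.7 and 35.5 to 54 CPM in gastrocnemius sham, T3 and T9. There, 1 of 7 (Cd68) was called higher after T3 and 3 of 7 after T9, while 4 of 7 were lower in sign in each. In the triceps these markers summed to 17.3 to 972 CPM in sham and 28.8 to 73.6 CPM after T3. After T3, 1 of 7 was called higher there and 6 of 7 were lower in sign. Of 7 fibroblast markers, 3 were lower in the gastrocnemius after T3, 2 after T9 and 3 in the triceps after T3. Of 6 fibre markers, Ckm, the muscle creatine kinase, fell in the 3 comparisons by 0.65, 0.42 and 0.58 on the log2 scale. Des, desmin, rose in the gastrocnemius by 0.47 and 0.46. Gastrocnemius T3 and gastrocnemius T9 each had 2 of the 6 called lower and 1 higher, and triceps T3 had 1 and 0. The lowest changes among the 6 were -0.83, -1.40 and -0.58, and the highest 0.52, 0.61 and 0.47. Another marker thus fell further than Ckm in both gastrocnemius comparisons.

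The muscles were compared in the 12 mice with both, taking the number in the description as the mouse, which is an inference. In sham, Mylpf (-0.71 ± 0.26, adjusted p = 0.046) and Pvalb (-0.77 ± 0.22, adjusted p = 0.021) were lower in the gastrocnemius, and Actn3 (0.76 ± 0.19, adjusted p = 0.017) and Atp2a1 (1.22 ± 0.25, adjusted p = 0.017) higher, where 12% of all genes were called lower and 26.8% higher (38.9% in either direction). Each of the 4 had the same sign in 4 of 4 mice. All 4 calls were lost without the sham mouse numbered 4 (replicate 3 in both muscles), which has the triceps library with the lowest median of the series, and also without the mouse as a block or without the 4 libraries of lowest median. The 2 muscles of that mouse deviated from their group means in opposite directions (r = -0.753 across genes), while 11 of 12 mice were over 0.1. After T3, 0 members were called by limma, against 9.95% lower and 20.5% higher among all genes (30.4% in either direction), with 3 at an unadjusted p under 0.05 (Mylpf, Casq1 and Atp2a1) and 1 called with voom weights. After T9, Mylpf (-0.89 ± 0.26), Myl1 (-0.49 ± 0.19) and Pvalb (-0.72 ± 0.22) were lower and Actn3 (0.66 ± 0.19) and Atp2a1 (0.98 ± 0.25) higher, against 11.1% and 41.9% (53% in either direction). These counts, 4 of 10 in sham and 5 of 10 after T9, lie near the shares of all genes. With the library median as a covariate, none of these calls held. Mylpf and Myl1 then stood at 0.02 and 0.05 after T9. In the reported test, Mylpf, Pvalb, Actn3 and Atp2a1 had the same direction in sham and after T9. After T3 they also had it in 4 of 4 mice each, though uncalled, with means of -0.59, -0.24, 0.40 and 0.70. Leaving out 1 T9 mouse changed the T9 count to between 0 and 5, with 0 called without the mouse numbered 11 and 1 (Atp2a1) without the mouse numbered 15.

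Whether the effect of injury on these genes differed between hind limb and forelimb was tested as an interaction. For T3, 0 of 10 members were called by limma, against 1.1% of all genes called lower and 0.142% higher (1.24% in either direction), and 0 had an unadjusted p under 0.05. For T9 it was again 0 and 0, against 3.19% and 3.76% (6.95% in either direction), and voom weights called 0 in both. The widest gap after T3 was that of Tnnc2 at -0.57 ± 0.43, then Pvalb at 0.53 ± 0.31 (adjusted p = 0.56, 95% interval -0.14 to 1.20) and Atp2a1 at -0.52 ± 0.36. After T9 it was Casq1 at -0.41 ± 0.24 (adjusted p = 0.36, -0.93 to 0.10). Mylpf differed by 0.12 ± 0.37 after T3 (-0.68 to 0.91) and by -0.18 ± 0.37 after T9 (-0.98 to 0.61). The T9 change was called for 5 members in the gastrocnemius and for 0 in the triceps, but the difference between the muscles did not pass the test.

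Members also differed in how closely each followed the mean of the 10. Tpm1 followed it most closely (Pearson r of 0.99 over the 12 gastrocnemius libraries and 0.96 over the 18 triceps libraries), then Pvalb (0.94 and 0.91) and Mylpf (0.94 and 0.83), while Actn3 (0.36 and 0.22) and Atp2a1 (-0.59 and -0.35) did not. These are descriptions over libraries that share groups and depth, and a member is part of the mean. Among 5337 other genes, those most like the mean were Capzb (smaller r of the muscles 0.94), Ldha (0.94), Metrn (0.93), Nrep (0.93), Ramp1 (0.91) and Sh3bgr (0.91). Ldha encodes the lactate dehydrogenase subunit of fast muscle and Capzb a subunit of the cap of actin filaments. The most opposite were Canx, Hnrnpf and Rab14. Nrep fell by 3.87 ± 0.27 in the gastrocnemius and by 3.75 ± 0.40 in the triceps after T3, and Ldha by 1.34 ± 0.15 and 1.19 ± 0.15.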

How the data were processed

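The deposited table holds, per the file's values and the submitters' processing notes, log2 CPM (reads per 1e+06 reads) with an offset of 0.5 reads for 11249 genes in 30 libraries. The authors had aligned reads with HISAT2 2.1.0 to GRCm38, counted them with featureCounts (Subread 1.5.1) and used limma, per the submitters' processing notes. Per the labels' protocols, polyA RNA libraries were made with a kit that keeps strand. Undoing the offset gave whole reads for 100% of values (within 0.01 reads). A symbol was found for 11240 gene IDs. Counts had been foreseen, but the deposited unit is log2, so the test was limma (version 3.58.1, R 4.3.3) with a variance trend, on genes at a log2 value of 0 or more in at least 4 libraries, with Benjamini-Hochberg adjustment over all genes. Each muscle had its own fit over its 3 groups, and that of the triceps had a term for the label number. Muscles were compared, and effects of injury tested between them, in 24 libraries with the mouse as a block. That block takes the number in the description as the mouse, and the deviations of the 2 muscles correlated over 0.1 in 11 of 12 mice. Deviations of triceps libraries of different surgeries and different replicate numbers correlated by -0.854 to 0.806. A correlation over 0.1 therefore does not decide whether the number in the description is the mouse. Replicates of a group differed beyond sampling noise (chi-square per degree of freedom of 9.78 or more in 63 pairs). Where nothing but that number ties a library to an animal, p-values measure the spread between libraries. Alternatives changed the scaling, filter, pseudocount, weights, covariates and libraries, and the slow-fibre list was also counted without gastrocnemius sham replicate 2, which was chosen after seeing the data. Likeness to the members' mean was ranked by the smaller correlation of the muscles among genes with a mean log2 value of 4 or more. Besides the members and their counterparts, up to 4 genes of each list and comparison could be named, those called with the smallest adjusted p. The members and lists were chosen with earlier results of these data known.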

Additional observations from a re-analysis of the deposited data

Results flagged for a closer look

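In the gastrocnemius T9 group, Tnnt3 stood at 27085.2 CPM in replicate 1, apart from the other 3 libraries at 21026 to 21141 CPM. It was the only one of 60 groups of values, 10 members in 6 groups, in which the highest or lowest library passed Dixon's 95% limit, and chance alone passes about 1 group in 20.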

How the results depend on the processing

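Of 2719 values of single members under an alternative, 2344 kept direction and side of the threshold, 104 lost and 58 gained a call, 208 uncalled values moved, and 5 turned direction across a call. Those 5 were for the gastrocnemius against the triceps after T9: Mylpf 0.01558 and Myl1 0.04867 with the library median as covariate, and Casq1, uncalled in the reported test, -0.4125 with centring, -0.2235 with library weights and -0.3883 with median-of-ratios voom. Of the counts of called members, 232 stayed within 1.5 times the reported one and 41 did not. With the median covariate, 2 were called in gastrocnemius T3 and 1 in gastrocnemius T9, 0 between muscles in sham and after T9, and 1 for the T9 effect. Quantile normalization left 2 in gastrocnemius T9, 1 in triceps T3 against T9, and 3 and 2 between muscles after T3 and T9. Library weights gave 1 in gastrocnemius T3 against T9, 4 between muscles after T3 and 1 for the T9 effect. Without the 4 libraries of lowest median it was 1, 0 in sham and 4 after T3, and with only the 2 groups compared 1 in gastrocnemius T3 against T9. In triceps T3 against T9, centring, no label term and label number 57 alone gave 1 each and 60 alone 0, and 57 alone gave 1 for triceps T3 against sham. Between muscles, removing the length and GC trend gave 1, 1 and 2 (sham, T3, T9), no mouse block 0 in sham, and leaving out sham mouse 4 gave 0 in sham and 3 after T3. After T3, a filter at log2 2, a pseudocount of 1 CPM, robust variances and voom gave 1 each. Leaving out 1 library gave 5 to 6, 4 to 5 and 0 in the gastrocnemius (T3, T9, T3 against T9) and 5, 0 and 1 to 3 in the triceps. Leaving out 1 mouse gave 0 to 5, 0 to 1 and 0 to 5 between muscles, and 0 for both effects. The cause was not tested. Length and GC removal and median-of-ratios voom were chosen after seeing the data. A block on the replicate number gave 5, 4 and 0 in the gastrocnemius and 5, 0 and 2 in the triceps. Same-numbered libraries of different surgeries correlated by -0.0225 (gastrocnemius) and 0.167 (triceps) on average, against 0.0078 and -0.029 for different-numbered ones. These correlations do not decide whether replicate numbers pair libraries. Same-numbered libraries of different surgeries carry different numbers in their descriptions, taken here as the mouse.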
